A study of Mus musculus with 36 samples.

Results

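The genes described here are 10 genes of insulin signalling and glucose uptake, out of 24750 genes measured by RNA-seq in mouse epididymal white adipose tissue (eWAT). They are *Insr*, *Irs1*, *Irs2*, *Pik3r1*, *Akt2*, *Foxo1*, *Pck1*, *Slc2a4*, *Slc2a1* and *Hk2*. They were chosen by symbol, and each symbol matched 1 gene ID of the table, so no row had to be picked among several. Values are edgeR-normalized CPM, that is reads scaled to the size of the library and by a normalization factor. The values of a library thus summed to 799716 to 1208061. All 10 genes were at 1 CPM or more in all 36 libraries and were tested.

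The eWAT, from which the lymph nodes had been removed, came from 36 male mice, with 3 mice in each of 12 groups. The mice were wild-type C57BL/6 (WT) or Adipoq-CCL19-KI (CCL19-KI), in which the chemokine gene *Ccl19* had been inserted at *Adipoq*, a gene that adipocytes express, while *Adipoq* itself was left intact. The CCL19-KI line was kept homozygous and the WT mice were bred separately, so genotype and breeding line cannot be told apart. Mice of both genotypes were fed a normal diet (ND), a high-fat diet labelled 40% (40% HFD) or one labelled 60% (60% HFD) for 10 weeks. Upper molars were ligatured on both sides to induce periodontitis at the age of 14 weeks in one group of each genotype and diet, and the ligatures were in place for 2 weeks. The other groups had no ligature, and sampling was thus at 16 weeks. The study addresses whether CCL19 from adipocytes links obesity with periodontitis, and these genes bear on how fat responds to insulin.

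The libraries held 11962228 to 21581595 reads, and 1 read was worth 0.0472 to 0.0834 CPM. The lowest count of any of the 10 genes in any library was 68 reads (*Slc2a1*). Counting error may not be small beside the spread between mice where that spread is narrow. An example is *Slc2a1* in ligatured CCL19-KI mice on ND (mean 7.93 CPM, SD 0.56). As a check of the labels, the reads of *Ccl19* and of its copy *Gm2564* were examined first. In 17 libraries labelled WT, *Gm2564* was at 0 to 0.160 CPM and *Ccl19* at 0.507 to 4.51 CPM, and in 17 libraries labelled CCL19-KI they were at 11.6 to 108 and 5.57 to 34.6 CPM. The library labelled WT on ND without ligature, replicate 2, had 41.9 CPM of *Gm2564* and 19.2 of *Ccl19*. The library labelled CCL19-KI on 60% HFD without ligature, replicate 3, had 0 of *Gm2564*, which by counting error allows up to 0.147 CPM (3 reads), and 0.687 of *Ccl19*. These 2 libraries go against their labels. The labels were kept, and values or counts without these libraries are given beside the calls of the 10 genes that include them. For the lists of other pathway genes, only counts without these libraries are given. In the comparisons where none of the 10 genes was called, the count without them was also 0, except for genotype over all mice. Reads of identical copies such as *Ccl19* and *Gm2564* can be split between them in counting.

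Markers of other tissues differed between libraries. The adipocyte marker score, the mean log2(CPM + 1) of 10 genes led by *Fabp4* and *Lpl*, was 8.53 to 11.1, so fat was present in every library. The score of 15 hepatocyte genes led by *Alb* and *Cyp2e1* was 1.22 to 10.7, with *Alb* at 5.55 to 26901 CPM. The score of 10 epididymal epithelium genes led by *Crisp1* and *Serpina1f* was 0.0275 to 9.27, and was highest in the library labelled WT on ND without ligature, replicate 2. The score of 6 smooth muscle genes led by *Acta2* and *Myh11* was 2.72 to 9.67. In a bulk tissue, fewer cells of a type and less RNA per cell cannot be told apart.

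Insulin binds its receptor, *Insr*, whose kinase phosphorylates the docking proteins *Irs1* and *Irs2*. These recruit phosphoinositide 3-kinase, whose regulatory subunit is encoded by *Pik3r1*, and the lipid it makes leads to activation of the kinase encoded by *Akt2*. In adipocytes AKT2 drives the transporter GLUT4, encoded by *Slc2a4*, to the cell surface, where glucose enters and is phosphorylated by hexokinase 2, encoded by *Hk2*. AKT also keeps the transcription factor FOXO1 out of the nucleus, and insulin lowers transcription of *Pck1*, which encodes the cytosolic phosphoenolpyruvate carboxykinase used for gluconeogenesis in liver and for making the glycerol of triglycerides in fat. *Slc2a1* encodes GLUT1, a transporter of basal glucose uptake found in many cell types.

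The bases before the transcription start are shown for 3 genes whose levels changed below, because *Pck1* and *Hk2* had the largest differences and *Irs1* differed in the same mice as *Pck1*. RefSeq promoter sequences (GRCm38.p6) were used for 8 of the 10 genes, and those of *Insr* and *Slc2a4* were not analysed here. Each sequence is the 250 bases before the start, 5′ to 3′ on the strand of the gene. Capitals mark matches, on either strand, to the FOXO core GTAAACA, the E-box CACGTG, the core of the cyclic AMP element TGACG or the SREBP element TCACNCCAC. The *Pck1* window is chr2:173152823-173153072 on the plus strand, the *Hk2* window chr6:82774455-82774704 on the minus strand and the *Irs1* window chr1:82291440-82291689 on the minus strand.
Pck1: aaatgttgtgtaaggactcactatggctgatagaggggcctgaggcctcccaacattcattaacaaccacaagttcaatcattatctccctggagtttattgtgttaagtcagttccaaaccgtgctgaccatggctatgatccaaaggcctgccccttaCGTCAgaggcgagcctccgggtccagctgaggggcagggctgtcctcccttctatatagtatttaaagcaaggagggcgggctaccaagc
Hk2: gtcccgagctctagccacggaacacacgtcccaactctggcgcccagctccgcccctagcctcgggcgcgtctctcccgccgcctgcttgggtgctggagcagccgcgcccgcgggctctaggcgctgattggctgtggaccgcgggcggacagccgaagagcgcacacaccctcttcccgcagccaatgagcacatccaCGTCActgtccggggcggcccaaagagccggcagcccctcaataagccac
Irs1: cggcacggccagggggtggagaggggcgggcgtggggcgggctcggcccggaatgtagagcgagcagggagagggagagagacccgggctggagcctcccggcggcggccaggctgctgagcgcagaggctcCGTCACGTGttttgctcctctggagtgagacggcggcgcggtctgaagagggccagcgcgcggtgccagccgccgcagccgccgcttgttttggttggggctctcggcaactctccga
The cyclic AMP core was matched 90 to 86 bases before the start of *Pck1* and 50 to 46 bases before that of *Hk2*, in both on the opposite strand. In *Irs1* this core and an E-box overlap between 118 and 110 bases before the start, and *Irs2* has an E-box 44 to 39 bases before its start. *Akt2* and *Pik3r1* have several listed starts. A cyclic AMP core lies 44 to 40 bases before 1 start of *Akt2* and 66 to 62 bases before another, and 35 to 31 bases before 1 start of *Pik3r1*. Neither the FOXO core nor the SREBP element was found before any of the 12 starts listed for the 8 genes. Over all 32851 promoter windows, 17.8% hold the cyclic AMP core, 6.02% the E-box, 3.17% the FOXO core and 1.05% the SREBP element. A match is a string of letters and not a site shown to be bound.

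On the scale of mean CPM per kilobase of exon, *Pck1* was the most abundant of the 10 genes at 659, followed by *Akt2* at 38.6, *Pik3r1* at 22.0, *Irs2* and *Slc2a4* both at 15.8, *Insr* at 13.0, *Hk2* at 12.2, *Foxo1* at 10.9, *Irs1* at 6.60 and *Slc2a1* at 2.33. On this scale transcripts of GLUT4 were more abundant than those of GLUT1 on average. In GENCODE M21 on GRCm38, *Pck1* lies at chr2:173153048-173159273 on the plus strand, *Hk2* at chr6:82725025-82774454 and *Slc2a4* at chr11:69942539-69948188, both on the minus strand. The highest library exceeded the lowest 32.0-fold for *Pck1*, 14.4-fold for *Slc2a4* and 10.8-fold for *Hk2*, but only 2.68-fold for *Pik3r1* and 2.83-fold for *Akt2*.

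CCL19-KI mice on 60% HFD without ligature had the lowest mean of all 12 groups for *Insr*, *Irs1*, *Irs2*, *Pik3r1*, *Akt2*, *Foxo1* and *Pck1*, which are 7 of the 10 genes, and the highest for *Slc2a1*. CCL19-KI mice on ND without ligature had the lowest mean of *Slc2a4* and *Hk2*. With the 2 libraries left out the lowest group was the same for 9 genes, while for *Slc2a4* it was CCL19-KI on 60% HFD without ligature, and *Slc2a1* was then highest in ligatured WT mice on ND. When the 12 groups were put in order, neighbours overlapped in all 11 pairs for *Insr*, *Irs2*, *Slc2a4*, *Slc2a1* and *Hk2*, and in 10 of 11 pairs for the other 5 genes. The plot of every mouse shows these levels.

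**Figure D1:**
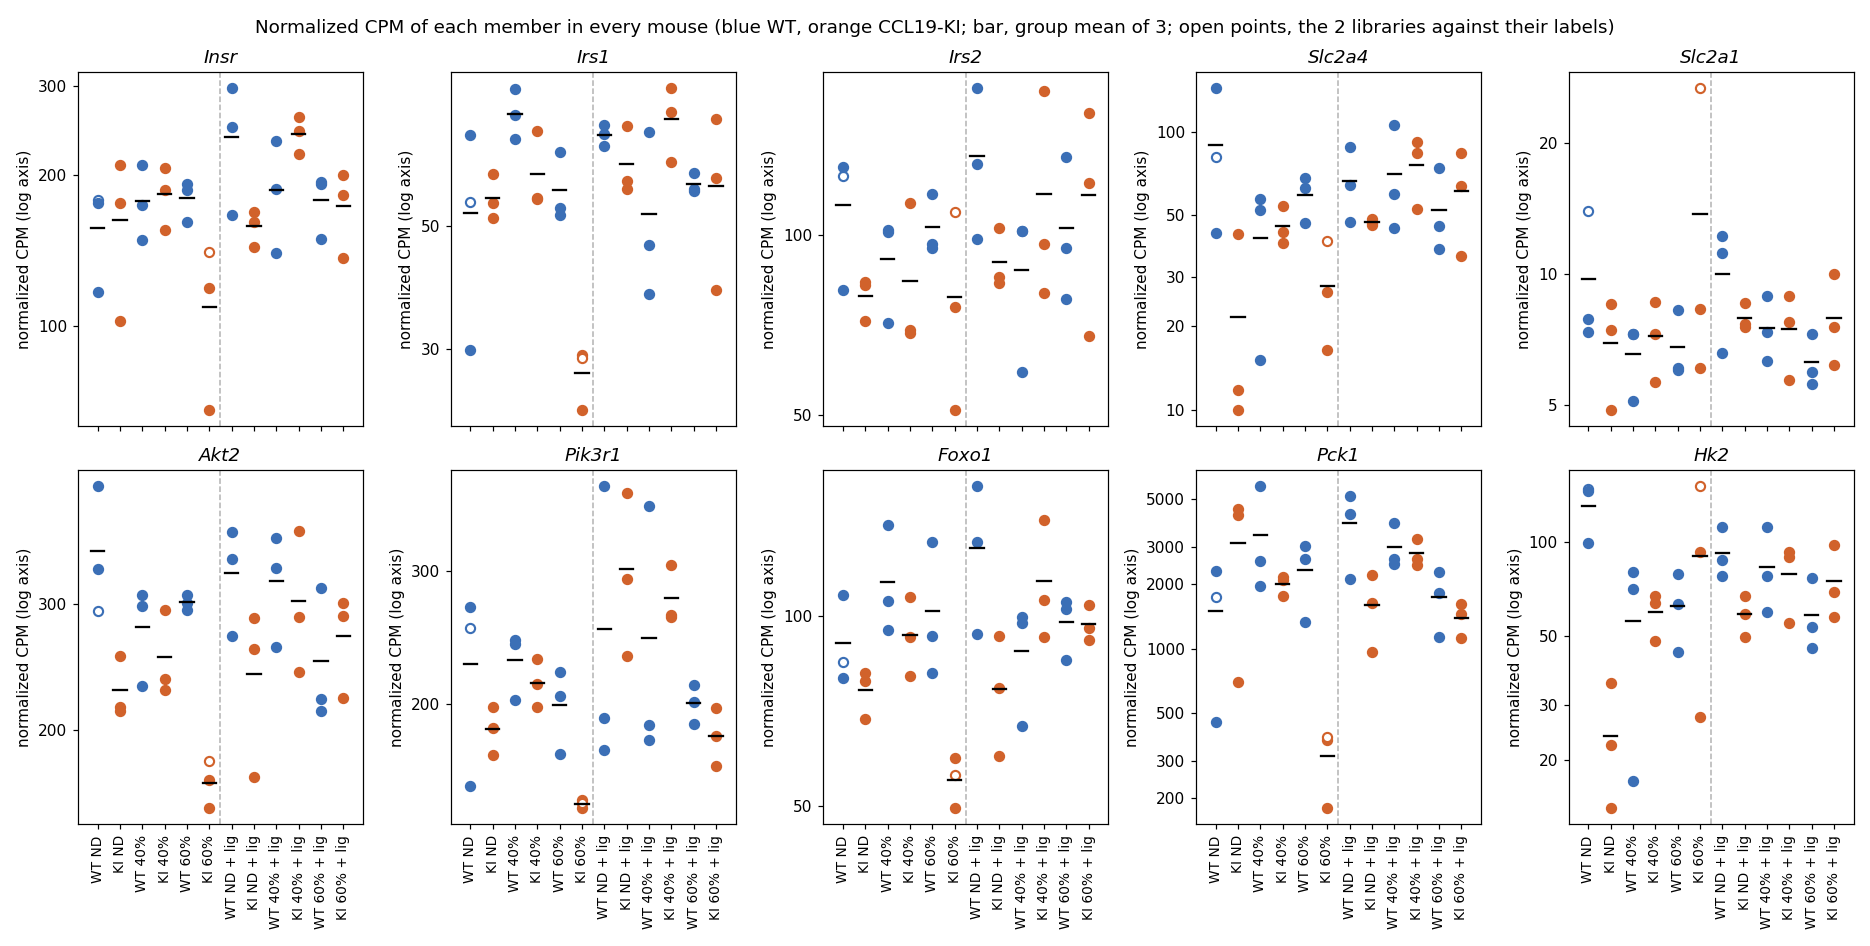
Normalized CPM (log axis) of the 10 genes in every mouse, by group; blue is WT, orange is CCL19-KI, the bar is the mean of 3 mice, groups right of the dashed line had a ligature, and open points are the 2 libraries that go against their labels. The 3 CCL19-KI mice on 60% HFD without ligature sit at 179 to 389 CPM of *Pck1* and at 23.2 to 29.3 CPM of *Irs1*.

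To ask how the diets acted, each HFD was compared with ND over both genotypes and ligature states. Averaged over these groups, *Pck1* and *Pik3r1* were lower under 60% HFD than under ND, and the other 8 genes did not pass the test. These were 2 of the 10 genes, or 20%, beside 18.6% of all 17852 genes tested, so the share is near the background. The median log2 fold change of the 10 genes was -0.12, against 0.01 over all genes.

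For *Pck1*, the lowest, median and highest of 12 mice were 453, 2173 and 5187 CPM under ND, 1769.6, 2533 and 5751 under 40% HFD and 179, 1396 and 3019.5 under 60% HFD. The ranges overlapped in all 3 diets, and the median was lowest under 60% HFD. The groups did not all move the same way from ND to 60% HFD. In unligatured WT the mean of *Pck1* was higher, at 1506 and 2325 CPM. It was lower in ligatured WT (3863 and 1742 CPM), unligatured CCL19-KI (3135 and 314 CPM) and, by little, ligatured CCL19-KI mice (1604 and 1399 CPM). The log2 fold change of 60% HFD against ND was -0.85 ± 0.29 (SE), with limma adjusted p = 0.0443. It was -0.83 without the 2 libraries, with adjusted p = 0.0749, and was then not called. For *Pik3r1*, the same 3 values were 156, 215 and 389 CPM under ND and 145, 185 and 221 under 60% HFD, and the ranges overlapped, with the largest gap between the highest mice. Its log2 fold change was -0.35 ± 0.12 (SE) (limma, adjusted p = 0.0485), and -0.33 without the 2 libraries (adjusted p = 0.10). Both calls are close to the threshold: leaving out any 1 of 23 of the 24 mice, all but replicate 1 of unligatured WT on ND, moved the count to 1 or 0.

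Marker scores moved with diet, the hepatocyte median being 5.43 under ND and 9.15 under 60% HFD. *Pik3r1* was not called with the hepatocyte, adipocyte, epididymal or smooth muscle score as a covariate (adjusted p = 0.238, 0.0754, 0.0642 and 0.0539). *Pck1* was not called with the epididymal or the smooth muscle score (adjusted p = 0.0632 and 0.0648), and was called with the hepatocyte score, at -1.38 (adjusted p = 0.00504), and with the adipocyte score, at -0.94 (adjusted p = 0.0257).

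*Irs1* and *Akt2* had log2 fold changes of -0.32 ± 0.13 (SE) and -0.22 ± 0.10 (SE) between 60% HFD and ND (limma, adjusted p = 0.0703 and 0.134) and did not pass. The intervals of *Slc2a4*, *Slc2a1* and *Hk2* were wide, at -0.50 to 0.53, -0.43 to 0.25 and -0.43 to 0.55 (95%, log2), so changes within these bounds were not detectable here.

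Under 40% HFD, none of the 10 genes passed the limma test against ND, beside 9.21% of all genes. At an unadjusted p under 0.05 the count was also 0, and edgeR's quasi-likelihood test on the recovered reads called 0. By edgeR 0 of the 10 were at an unadjusted p under 0.05, beside 4775 of all 17852 genes. For *Pck1* the log2 fold change was 0.41 ± 0.29 (SE) and did not pass. When the HFDs were compared directly, *Pck1* was lower under 60% HFD, with a log2 fold change of -1.26 ± 0.29 (SE) (limma, adjusted p = 0.0371), a ratio of 0.417. It was the only one of the 10 genes called, beside 0.745% of all genes, and it was also called without the 2 libraries (-1.31, adjusted p = 0.0293). The next were *Irs1* at -0.46 ± 0.13 (SE) and *Pik3r1* at -0.39 ± 0.12 (SE) (adjusted p = 0.0774 and 0.147). Of the 24 mice, leaving out 16 in turn ended the call of *Pck1*, with adjusted p up to 0.0952. These were replicate 1 of unligatured and replicates 2 and 3 of ligatured WT on 40% HFD, all 6 CCL19-KI mice on 40% HFD, replicate 1 of unligatured and replicates 2 and 3 of ligatured WT on 60% HFD, and replicate 1 of unligatured and all 3 ligatured CCL19-KI mice on 60% HFD. The comparisons share the mice of each diet.

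**Figure D2:**
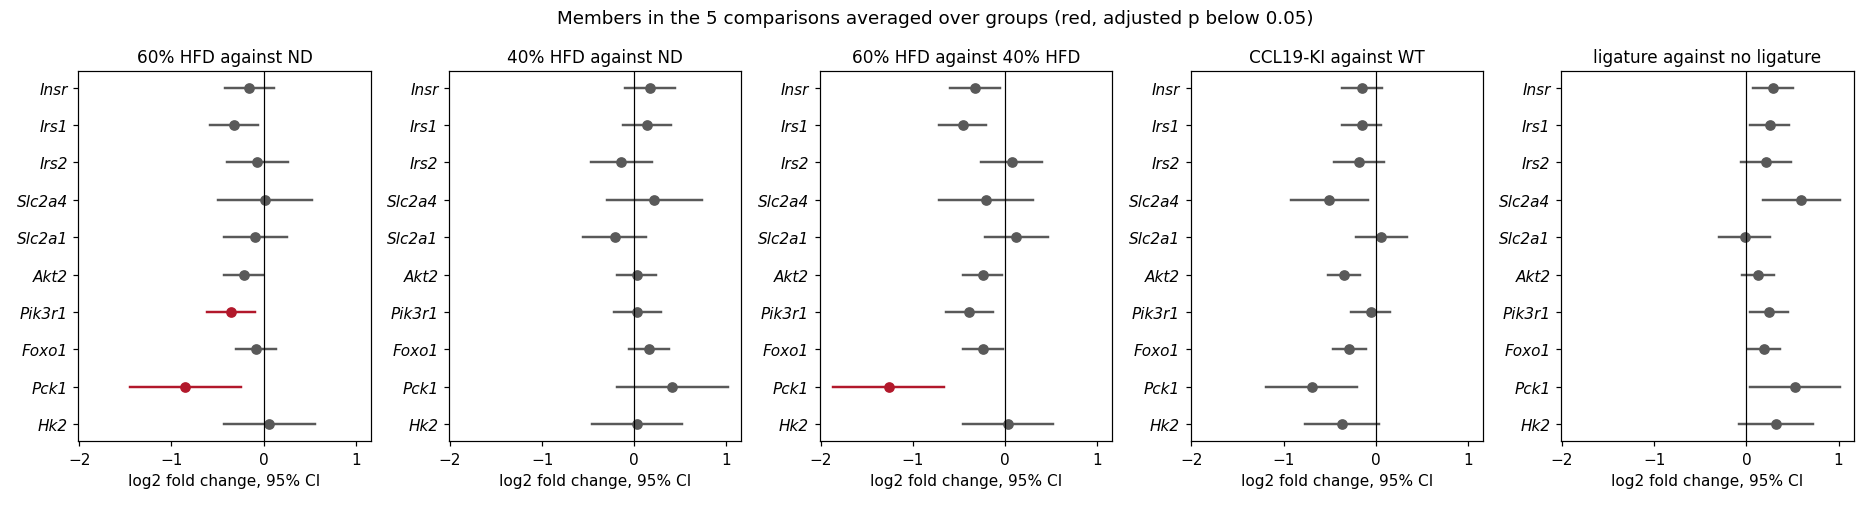
Log2 fold change with 95% confidence interval of the 10 genes in the 5 comparisons averaged over groups; red marks an adjusted p below 0.05. *Pck1* is red in both comparisons of 60% HFD, at -0.85 and -1.26, and *Pik3r1* in the first, and 9 of 10 points lie left of 0 for genotype and right of 0 for ligature without any being red.

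Averaged over diet and ligature, CCL19-KI against WT gave no call among the 10 genes by limma, beside 0.459% of all genes, and 0 by edgeR. At an unadjusted p under 0.05 each test gave 4, beside 3038 of all 17852 genes by edgeR. Of the 10 genes 9 had a negative log2 fold change, with a median of -0.23 against -0.02 over all genes. *Akt2* was nearest to the threshold. The lowest, median and highest of 18 mice were 212, 305 and 439 CPM in WT and 155, 239 and 379.9 CPM in CCL19-KI, with a log2 fold change of -0.35 ± 0.08 (SE) (limma, adjusted p = 0.0574). With the 2 libraries left out it was -0.38 with adjusted p = 0.0155, and *Akt2* was then the 1 gene of the 10 called, while the share of all genes called was 7.35%. *Foxo1*, *Pck1* and *Slc2a4* had log2 fold changes of -0.29 ± 0.09 (SE), -0.69 ± 0.24 (SE) and -0.50 ± 0.20 (SE) (adjusted p = 0.106, 0.147 and 0.205).

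Within the 6 combinations of diet and ligature, genotype calls among the 10 genes came from unligatured mice on ND and on 60% HFD. Under ND without ligature, *Slc2a4*, *Akt2* and *Hk2* were lower in CCL19-KI mice, 3 of the 10 genes beside 16.6% of all genes. These are the insulin-responsive glucose transporter, the kinase that moves it and the hexokinase that traps the glucose. The other genes, among them the receptor and its docking proteins, did not pass, with *Irs2* at -0.47 ± 0.32 (SE) on the log2 scale. A difference between called and uncalled genes was not tested.

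*Hk2* was at 99.1, 148 and 146 CPM in the libraries labelled WT and at 35.3, 22.4 and 14.0 CPM in those of CCL19-KI. The groups did not overlap. The log2 fold change was -2.47 ± 0.48 (SE), a ratio of 0.18 (limma, adjusted p = 0.00380). *Slc2a4* was at 43.1, 80.9 and 143 CPM in WT and at 42.7, 11.8 and 9.97 CPM in CCL19-KI. The lowest WT and the highest CCL19-KI mouse were nearly level, and the others lay apart. The log2 fold change was -2.14 ± 0.50 (SE) (adjusted p = 0.00852). *Akt2* was at 336, 294 and 439 CPM in WT and at 254, 213 and 215 CPM in CCL19-KI, without overlap, and its log2 fold change was -0.63 ± 0.21 (SE) (adjusted p = 0.0375). Between these groups, 28.1% of all genes tested did not overlap.

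Without the 2 libraries that go against their labels all 3 genes were still called, with log2 fold changes of -2.38 for *Hk2*, -2.13 for *Slc2a4* and -0.76 for *Akt2* (limma, adjusted p = 0.00373, 0.0130 and 0.0248). The call of *Hk2* was also kept when each of the 6 mice was left out in turn (adjusted p up to 0.0393). Only 1 gene was called without replicate 3 of WT, or without replicate 2 or 3 of CCL19-KI. Tissue markers moved with these groups. The adipocyte score was 10.4, 10.3 and 11.1 in WT and 10.1, 9.22 and 9.05 in CCL19-KI, and the hepatocyte score was 1.36, 1.41 and 1.22 in WT and 4.95, 10.3 and 10.5 in CCL19-KI, without overlap of either. With the adipocyte score as a covariate the log2 fold changes were -1.24, -0.75 and -0.15 for *Hk2*, *Slc2a4* and *Akt2*, and with the hepatocyte score they were -1.89, -1.11 and -0.64, and in neither fit was one of them called (adjusted p = 0.0871 to 0.645 and 0.0959 to 0.299). Tissue content and genotype cannot be told apart in these mice.

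Under 60% HFD without ligature, *Insr*, *Irs1*, *Akt2*, *Foxo1* and *Pck1* were lower in CCL19-KI mice, 5 of the 10 genes beside 16.8% of all genes. They are the receptor, a docking protein, the kinase, a transcription factor that AKT controls and a gene that insulin lowers. *Irs2*, *Pik3r1*, *Slc2a4*, *Slc2a1* and *Hk2* did not pass. *Slc2a4*, at -1.14 on the log2 scale, was nonetheless lower by more than *Irs1*, at -1.07. A difference between called and uncalled genes was not tested. The median log2 fold change of the 10 genes was -0.80, against 0.04 over all genes.

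*Pck1* was at 1332, 2623 and 3019.5 CPM in WT and at 179, 374 and 389 CPM in CCL19-KI. All 3 CCL19-KI libraries were below the lowest WT library, and they were also the 3 lowest of all 36 libraries. The log2 fold change was -2.88 ± 0.59 (SE), a ratio of 0.136 (limma, adjusted p = 0.00447). *Irs1* was at 53.8, 68.2 and 52.3 CPM in WT and at 29.3, 23.2 and 28.9 CPM in CCL19-KI, again without overlap, with a log2 fold change of -1.07 ± 0.25 (SE) (adjusted p = 0.00929). *Irs2*, the other docking protein, was at 117, 94.9 and 96.6 CPM in WT and 51.0, 75.8 and 109 CPM in CCL19-KI, and did not pass at -0.44 ± 0.32 (SE) (95% interval -1.11 to 0.22).

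*Foxo1* was at 81.2, 93.0 and 131 CPM in WT and at 49.6, 59.6 and 55.9 CPM in CCL19-KI, a log2 fold change of -0.85 ± 0.21 (SE) (limma, adjusted p = 0.0120). *Akt2* was at 309, 301 and 295 CPM in WT, a narrow range, and at 155, 170.2 and 181 CPM in CCL19-KI, a log2 fold change of -0.84 ± 0.21 (SE) (adjusted p = 0.0116). *Insr* was at 161, 191 and 186 CPM in WT and at 68.1, 119 and 140.4 CPM in CCL19-KI, a log2 fold change of -0.77 ± 0.26 (SE) (adjusted p = 0.0426). The groups did not overlap for these 3 genes, nor for *Pik3r1* and *Slc2a4*, which did not pass at -0.42 ± 0.25 (SE) and -1.14 ± 0.50 (SE). Over all genes tested, 30.7% had groups that did not overlap.

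In the CCL19-KI group *Slc2a1* was at 6.08, 8.29 and 26.8 CPM and *Hk2* at 27.6, 93.0 and 151 CPM, a wide spread. The highest value of both genes over all 36 libraries was in its replicate 3, the library that goes against its label. The same 5 genes were called without the 2 libraries, with log2 fold changes of -3.08 for *Pck1*, -1.12 for *Irs1*, -0.98 for *Insr*, -0.89 for *Akt2* and -0.86 for *Foxo1* (limma, adjusted p = 0.00519 to 0.0206). Without replicate 2 or 3 of WT, 3 genes were called. Markers moved with these groups too. The hepatocyte score was 8.65, 10.2 and 10.7 in WT and 5.26, 6.09 and 1.77 in CCL19-KI, the adipocyte score 10.2, 10.1 and 9.92 against 9.14, 9.44 and 9.78, the smooth muscle score 3.09, 3.04 and 3.24 against 7.71, 6.26 and 6.58, and the epididymal epithelium score 0.0275, 0.0338 and 0.0313 against 2.03, 7.15 and 3.55. With the hepatocyte score as a covariate, the log2 fold change of *Pck1* was -1.85 and that of *Irs1* -1.02, and none of the 5 was called (adjusted p = 0.0913 to 0.421). The smooth muscle score as a covariate also left 0 called (adjusted p = 0.0894 to 0.208), with *Pck1* at -2.88. With the adipocyte score *Insr* was not called (adjusted p = 0.0782) and the other 4 were, and edgeR gave the same split (*Insr* adjusted p = 0.0529). With the epididymal score *Akt2* and *Foxo1* were not called (adjusted p = 0.0738 and 0.0567). The scores do not overlap between the groups, so marker content and genotype cannot be told apart here.

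In the other 4 combinations of diet and ligature, limma called none of the 10 genes between the genotypes. The share of all genes called was 0.0056% under 40% HFD without ligature, and with ligature it was 1.03% under ND, 0.0112% under 40% HFD and 0.0112% under 60% HFD. At an unadjusted p under 0.05 the counts were 0, 4, 1 and 0 of 10, beside 1185, 2257, 568 and 443 of all 17852 genes. By edgeR 0 of the 10 were called in each. Among ligatured mice on ND, the lowest adjusted p was that of *Foxo1*, which was at 160.2, 131 and 93.6 CPM in WT and 59.9, 76.8 and 93.0 CPM in CCL19-KI, a log2 fold change of -0.72 ± 0.21 (SE) (adjusted p = 0.0879).

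**Figure D3:**
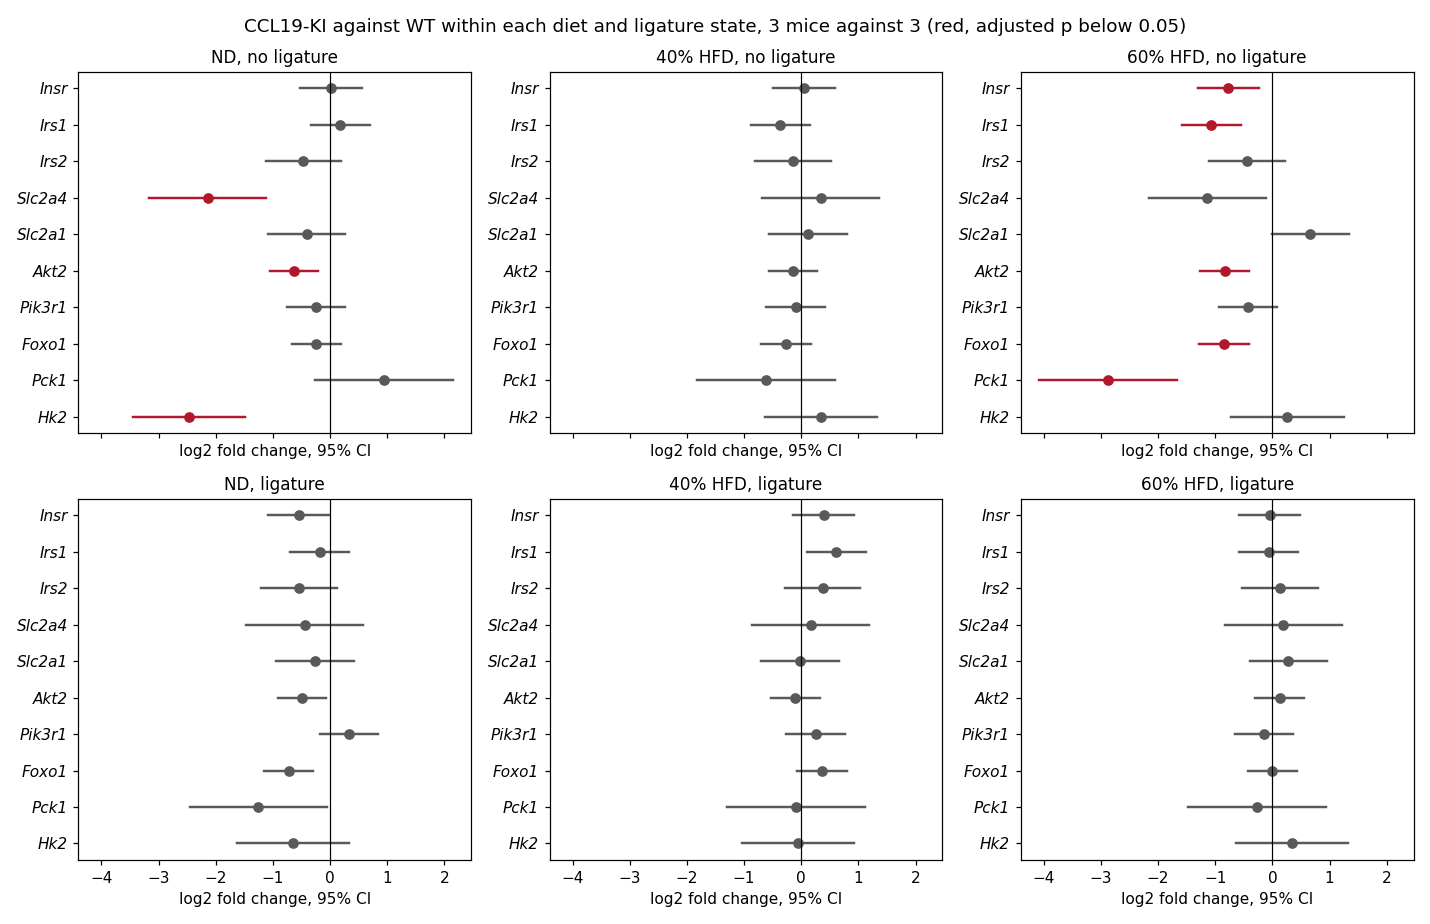
Log2 fold change of CCL19-KI against WT with 95% confidence interval in each diet and ligature state; red marks an adjusted p below 0.05. The 3 red genes under ND without ligature (*Slc2a4*, *Akt2*, *Hk2*) and the 5 under 60% HFD without ligature (*Insr*, *Irs1*, *Akt2*, *Foxo1*, *Pck1*) all lie left of 0, and the other 4 panels hold none.

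Whether the genotype effect itself differed was tested as an interaction. Between 60% HFD and ND, averaged over ligature, the genotype effect on *Hk2* differed by 1.86 ± 0.48 (SE) on the log2 scale (limma, adjusted p = 0.0631), and that on *Pck1* by -1.43 ± 0.59 (SE) (adjusted p = 0.155). With the 2 libraries left out these were 1.56 and -1.65 (adjusted p = 0.0922 and 0.129). No gene of the 10 passed, beside 0.476% of all genes, while edgeR called 1, beside 1184 of all 17852 genes. At an unadjusted p under 0.05 limma gave 4 of the 10, beside 3988 of all genes. For the difference between 40% HFD and ND, limma and edgeR called 0 of the 10 genes (limma, 0% of all genes). For that between ligatured and unligatured mice both also called 0 (limma, 0.0056%). At an unadjusted p under 0.05 limma gave 4 and 3 of the 10, beside 1964 and 1925 of all genes. These differences were averaged over ligature or over diet, whereas the genotype calls came from unligatured mice on ND and on 60% HFD. They thus do not decide whether a call is particular to its diet or ligature state, and do not show it to be. A difference for *Hk2* within unligatured mice, chosen after the values were seen, is given under the additional observations.

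Within genotypes, the effect of 60% HFD against ND was called in CCL19-KI mice without ligature, where *Irs1* and *Pck1* were lower and *Hk2* was higher, 3 of 10 genes beside 10.2% of all genes. *Pck1* was at 700.4, 4501 and 4204 CPM under ND and 179, 374 and 389 CPM under 60% HFD, a log2 fold change of -2.99 ± 0.59 (SE) (limma, adjusted p = 0.00601). Replicate 1 on ND was far below the other mice on ND but above all on 60% HFD. In this comparison 18.1% of all genes tested had groups that did not overlap. *Irs1* was at 51.7, 55.0 and 62.2 CPM under ND, against 23.2 to 29.3 CPM under 60% HFD, a log2 fold change of -1.03 ± 0.25 (SE) (adjusted p = 0.0153).

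*Hk2* was at 35.3, 22.4 and 14.0 CPM under ND and 27.6, 93.0 and 151 CPM under 60% HFD, with overlap, and its log2 fold change was 1.67 ± 0.48 (SE) (limma, adjusted p = 0.0314). Without the 2 libraries, of which replicate 3 on 60% HFD belongs here, *Hk2* was at 1.15 (adjusted p = 0.142) and no longer called, while *Irs1* and *Pck1* were called at -1.08 and -3.19 (adjusted p = 0.0257 and 0.00784). With the hepatocyte score, which was 4.95 to 10.5 under ND and 1.77 to 6.09 under 60% HFD, as a covariate, none of the 3 was called (adjusted p = 0.0586 to 0.157). Leaving out replicate 2 or 3 on ND also left 0 called.

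In the other groups limma called none of the 10 genes for 60% HFD against ND, beside 3.41% of all genes in WT without ligature, 2.57% in ligatured WT and 12.8% in ligatured CCL19-KI mice. The counts at an unadjusted p under 0.05 were 1, 0 and 1, beside 3003, 3328 and 5686 of all 17852 genes, and edgeR called 0 of the 10 in each. Of these, *Pik3r1* in ligatured CCL19-KI mice was nearest, at 232, 293 and 382 CPM under ND and 197, 181 and 165 CPM under 60% HFD, without overlap (log2 fold change -0.71 ± 0.25 (SE), adjusted p = 0.0576). In that comparison 36.9% of all genes tested did not overlap. For 40% HFD against ND limma also called none, beside 6.03% of all genes in WT without ligature, 0.207% in ligatured WT, 0% in CCL19-KI without ligature and 4.92% in ligatured CCL19-KI mice. The counts at an unadjusted p under 0.05 were 4, 2, 2 and 2, beside 4059, 2086, 1486 and 4099 of all 17852 genes. By edgeR 0 of the 10 were called in each.

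The ligature is tied in the mouth, and its effect in eWAT was asked over all diets and genotypes. None of the 10 genes passed the limma test, beside 0.325% of all genes, with 6 at an unadjusted p under 0.05 and 0 called by edgeR. By edgeR 5 were at an unadjusted p under 0.05, beside 3412 of all 17852 genes. Of the 10 genes 9 had a positive log2 fold change, with a median of 0.25 against -0.02 over all genes. On ND, 40% HFD and 60% HFD this median was 0.18, 0.04 and -0.06 in WT and 0.19, 0.37 and 0.69 in CCL19-KI mice. The last rests on an unligatured group that holds 1 of the 2 libraries against their labels. Over all mice *Slc2a4* had the largest log2 fold change, 0.59 ± 0.20 (SE) (limma, adjusted p = 0.164), or 0.65 without the 2 libraries (adjusted p = 0.139). Its lowest, median and highest of 18 mice were 9.97, 43.4 and 143 CPM without ligature and 35.7, 56.0 and 106 CPM with it. The adipocyte score was 8.53 to 11.1 without ligature and 9.55 to 10.9 with it, and with this score as a covariate the log2 fold change of *Slc2a4* was 0.11 (limma, adjusted p = 0.765).

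In CCL19-KI mice on 60% HFD, *Irs1*, *Foxo1* and *Pck1* were higher with the ligature, 3 of 10 genes beside 5.66% of all genes. *Pck1* was at 179, 374 and 389 CPM without and 1459, 1614 and 1123 CPM with ligature, without overlap, a log2 fold change of 2.22 ± 0.59 (SE) (limma, adjusted p = 0.0293). *Irs1* was at 23.2 to 29.3 CPM without and 78.4, 38.3 and 61.0 CPM with ligature, a log2 fold change of 1.05 ± 0.25 (SE) (adjusted p = 0.0190). *Foxo1* was at 49.6 to 59.6 CPM without and 95.8, 104 and 91.6 CPM with ligature, a log2 fold change of 0.81 ± 0.21 (SE) (adjusted p = 0.0273). Between these groups, 23.3% of all genes tested did not overlap. The mice without ligature are those of the genotype comparison under 60% HFD above, so both sets of calls rest on the same 3 libraries. Without the 2 libraries that go against their labels 5 genes were called, *Insr* and *Akt2* in addition (0.92 and 0.72, adjusted p = 0.0406 and 0.0469). The hepatocyte score was 5.26, 6.09 and 1.77 without and 9.84, 9.50 and 6.72 with ligature. The smooth muscle score was 6.26 to 7.71 without and 3.21 to 4.35 with ligature, and the epididymal score 2.03 to 7.15 and 0.116 to 0.321. With the hepatocyte or the smooth muscle score as a covariate 0 of the 10 genes were called, and with the epididymal score *Irs1* and *Foxo1* were not (adjusted p = 0.0557 and 0.0999). Marker content and ligature cannot be told apart in these mice. Leaving out replicate 1 or 3 of the ligatured mice also left 0 called, and leaving out replicate 1 of the unligatured mice left 1.

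Limma called none of the 10 genes for the ligature in WT mice on ND (6.73% of all genes), 40% HFD (0%) or 60% HFD (0%), nor in CCL19-KI mice on ND (1.37%) or 40% HFD (0%). The counts at an unadjusted p under 0.05 were 4, 1, 0, 3 and 0, beside 4367, 2675, 213, 3235 and 302 of all 17852 genes. By edgeR 0 of the 10 were called in each. The ligature effect of 60% HFD minus ND (0% of all genes) and of 40% HFD minus ND (0.0056%) gave no limma call among the 10 genes. At an unadjusted p under 0.05 they gave 0 and 1 of the 10, beside 2559 and 1707 of all 17852 genes. By edgeR 0 were called in each.

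The other genes of insulin signalling were taken as a list of 36, all of them tested. Under 60% HFD against ND, 6 were higher and 3 were lower, or 25.0% beside 18.6% of all genes. Among the higher were *Irs3*, a docking protein of mouse fat, at 0.72 ± 0.22 (SE) (limma, adjusted p = 0.0227), the AKT phosphatase *Phlpp1* at 0.41 ± 0.13 (SE), the adaptor *Grb2* at 0.34 ± 0.07 (SE) and the kinase *Mtor* at 0.33 ± 0.07 (SE). Among the lower were *Foxo6* at -0.54 ± 0.17 (SE) and the receptor inhibitor *Grb10* at -0.52 ± 0.13 (SE). Under 40% HFD, *Mtor* and *Foxo4* were higher (0.32 ± 0.07 (SE) and 0.24 ± 0.06 (SE)) and *Pik3r2*, which encodes another regulatory subunit of phosphoinositide 3-kinase, was lower (-0.22 ± 0.07 (SE)), or 8.33% beside 9.21%. Without the 2 libraries the counts were 5 higher and 3 lower under 60% HFD, or 22.2% beside 15.0% of all genes. Under 40% HFD they were 2 and 1, or 8.33% beside 7.90%. With the hepatocyte score as a covariate 5 were higher and 0 lower under 60% HFD, or 13.9% beside 11.6%. Under 40% HFD 1 was then higher and 1 lower, or 5.56% beside 2.85%.

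Of 33 other genes of glucose uptake and use, all tested, 11 were higher and 1 was lower under 60% HFD, or 36.4% beside 18.6%, with a median log2 fold change of 0.32 against 0.01. Among the higher were the gluconeogenic *Fbp1* at 2.51 ± 0.81 (SE) (limma, adjusted p = 0.0319), *Pdk4*, which slows entry of pyruvate into oxidation, at 1.19 ± 0.25 (SE), *Hk3* at 1.08 ± 0.26 (SE) and *G6pdx*, of the pentose phosphate pathway, at 0.95 ± 0.17 (SE). The glucose transporter *Slc2a3* was lower at -0.92 ± 0.32 (SE) (adjusted p = 0.0452). Under 40% HFD 6 were higher and 0 lower, or 18.2% beside 9.21%, among them *Fbp1* (2.87 ± 0.81 (SE)), *G6pc*, the last step of glucose release by liver (2.59 ± 0.69 (SE)), *Fbp2* (0.61 ± 0.16 (SE)) and *G6pdx* (0.56 ± 0.17 (SE)). *Fbp1* and *G6pc* are known for their expression in liver, and the hepatocyte score had a median of 5.43 under ND, 9.20 under 40% HFD and 9.15 under 60% HFD. With that score as a covariate, the counts were 9 higher and 1 lower under 60% HFD, or 30.3% beside 11.6% of all genes. Under 40% HFD they were 2 and 1, or 9.09% beside 2.85%. Without the 2 libraries against their labels, 8 were higher and 3 lower under 60% HFD, or 33.3% beside 15.0%. Under 40% HFD 5 were then higher and 0 lower, or 15.2% beside 7.90%.

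Between the HFDs, limma called 0 of both lists, beside 0.745% of all genes, and edgeR called 0 of both, beside 0.812%. At an unadjusted p under 0.05 limma gave 6 of the signalling and 10 of the glucose genes. By edgeR these were 7 and 9, beside 2546 of all 17852 genes. Without the 2 libraries limma called 0 signalling genes and 1 glucose gene, beside 1.52% of all genes. Between the genotypes limma called 0 of both, beside 0.459% of all genes, and edgeR called 0 and 1, beside 0.510%. At an unadjusted p under 0.05 limma gave 7 and 6. By edgeR these were 8 and 8, beside 3038 of all 17852 genes. In CCL19-KI mice 4 of each list were lower without the 2 libraries, or 11.1% and 12.1% beside 7.35% of all genes. With the ligature, *Txnip*, which restrains glucose uptake, was higher at 0.56 ± 0.09 (SE) (limma, adjusted p = 0.00591). It was 1 of the 33 glucose genes, beside 0.325% of all genes, and 1 gene is not a result about the list. Without the 2 libraries 1 glucose gene was called, beside 0.358% of all genes. Of the signalling genes 0 were called, with 8 at an unadjusted p under 0.05 and 0 called by edgeR. By edgeR 10 were at an unadjusted p under 0.05, beside 3412 of all 17852 genes.

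Over the 36 libraries, which share diets, genotypes and tissue content, likeness was taken as Pearson r of log2 values and is a description. Within the 10, *Slc2a4* and *Hk2* were most alike (r = 0.82), followed by *Insr* and *Pck1* (r = 0.79), while *Irs1* and *Slc2a1* were least alike (r = -0.28). Over the 34 libraries left without the 2, these values were 0.87, 0.80 and -0.03. Outside them, *Slc2a4* was most like *Plin1* (r = 0.95), which coats the lipid droplet and is one of the adipocyte markers, and *Pygb* (r = 0.95). *Hk2* was most like *Sort1* and *Slc26a2* (both r = 0.91), and *Pck1* was most like *Ivd* (r = 0.93) and *Aldh6a1* (r = 0.92), enzymes of branched-chain amino acid breakdown. *Insr* was most like *March6* and *Por* (both r = 0.88), *Irs1* like *Nfia* (r = 0.88) and *Ivd* (r = 0.77), *Irs2* like *Sesn2* (r = 0.83) and *Fbxl4* (r = 0.80), and *Foxo1* like *Rora* (r = 0.83) and *Dbt* (r = 0.81). *Akt2* was most like *Tmem120a* and *Mknk2* (both r = 0.89), *Pik3r1* like *Gm19522* (r = 0.75) and *Fbxo45* (r = 0.74), and *Slc2a1* like *Rundc1* (r = 0.81) and *Nsmce3* (r = 0.78).

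The level of *Slc2a4* went with the adipocyte score (r = 0.88 over 36 libraries) and so did that of *Hk2* (r = 0.77), while *Pck1* went less closely with the hepatocyte score (r = 0.54). Over 34 libraries, without the 2, the values were 0.89, 0.85 and 0.52. The points share libraries and depth, and these values are descriptions.

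**Figure D4:**
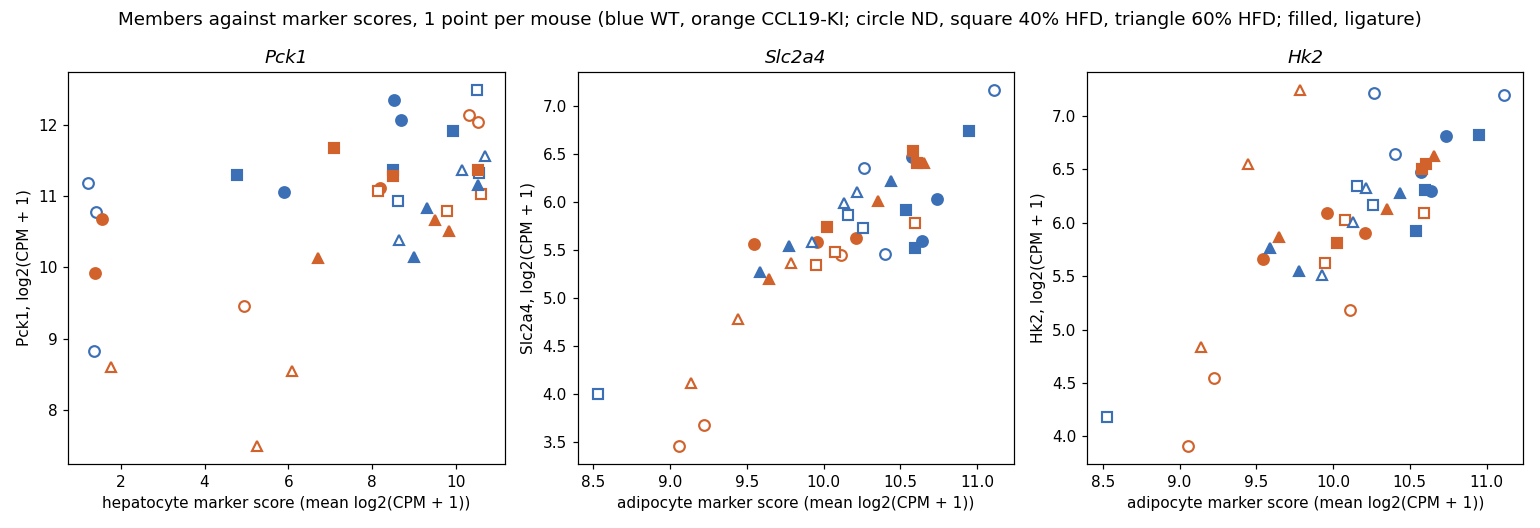
Log2(CPM + 1) of *Pck1* against the hepatocyte marker score, and of *Slc2a4* and *Hk2* against the adipocyte marker score, with 1 point per mouse; blue is WT, orange is CCL19-KI, the shape gives the diet and filled points had a ligature. *Slc2a4* follows the adipocyte score (r = 0.88) more closely than *Pck1* follows the hepatocyte score (r = 0.54).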

How the data were processed

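Epididymal fat RNA of 36 mice was depleted of rRNA, made into directional libraries and sequenced. Per the authors' methods and the labels' processing notes, reads were trimmed with Trimmomatic 0.38, aligned with Bowtie2 within RSEM 1.3.0 and normalized with edgeR; the methods give mm10 and the notes GRCm39. The deposited signal values are the authors' edgeR-normalized CPM per gene. All values were whole multiples of 1 read (tolerance 0.01), so reads were recovered. The library totals thus include all reads in the table. Libraries were grouped by their labels, which list ligatured and unligatured mice, whereas the series' design text mentions ligature for all.

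Values were taken as log2(CPM + 1), and 17852 genes with at least 1 CPM in at least 3 libraries were fitted with limma 3.58.1 (R 4.3.3, eBayes with trend) as 12 group means over all 36 mice, without covariates. P-values were adjusted by Benjamini-Hochberg over all genes, and a gene was called below 0.05. Fold changes are on the log2(CPM + 1) scale, which understates low genes. The edgeR 4.0.16 quasi-likelihood test on recovered reads was an alternative. The code was tested on simulated data. No replicates were duplicates: the chi-square per degree of freedom of replicate pairs was 15.3 to 333. The labels name separate mice, so p-values measure the spread between mice. Markers of kidney tubule, skeletal muscle, brown adipocyte, macrophage, B cell, endothelial and mesothelial cells scored 0.0371 to 3.89, 0.753 to 5.24, 0.985 to 3.09, 5.14 to 7.11, 0.578 to 4.22, 3.65 to 5.22 and 4.11 to 7.88 over the libraries.

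The named genes are the 10 genes, the up to 5 genes of each pathway list with the largest called changes in each direction, the 2 genes most like each of the 10, and the 2 marker genes of highest mean in each tissue list discussed. Some genes that this rule names are not reported here. The genes and lists were chosen with earlier results of these data known. Gene symbols came from an annotation table, and 124 of 24750 IDs had none. Promoter sequences are from RefSeq, and exon lengths from GENCODE M21.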

Additional observations from a re-analysis of the deposited data

Results flagged for a closer look

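*Hk2* moved in opposite directions under 40% HFD in unligatured mice. In WT it was at 99.1, 148 and 146 CPM under ND and 17.2, 80.1 and 70.6 CPM under 40% HFD, and all mice on 40% HFD were lower. In CCL19-KI mice it was at 35.3, 22.4 and 14.0 CPM under ND and 67.2, 64.1 and 48.2 CPM under 40% HFD, and all were higher. Over all genes tested, the diet groups did not overlap for 20.7% in WT and for 12.7% in CCL19-KI mice. The diet effects of the genotypes differed by 2.82 ± 0.68 (SE) on the log2 scale, with limma adjusted p = 0.0395 over all genes for this contrast. Without the 2 libraries that go against their labels the difference was 2.72 (adjusted p = 0.0218). The gene and contrast were chosen after the values were seen, because the mice lay apart in opposite directions. The adjustment does not cover that choice, so neither p-value supports the pattern. Neither diet effect passed the test by itself. The adipocyte score was 10.3 to 11.1 in WT under ND and 8.53 to 10.3 under 40% HFD, and 9.05 to 10.1 in CCL19-KI under ND and 9.95 to 10.6 under 40% HFD. The hepatocyte score was 1.22 to 1.41 in WT under ND and 8.62 to 10.5 under 40% HFD, and 4.95 to 10.5 in CCL19-KI under ND and 8.14 to 10.6 under 40% HFD. The part of these markers in the result was not tested.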

How the results depend on the processing

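No log2 fold change reversed in 1335 alternative values of 34 results. Of these values 1149 stayed on their side of the threshold, 161 lost and 25 gained a call. The 34 results were those called, or at an unadjusted p under 0.05 in an averaged comparison. Settings that change only the filter, the spread estimate, the replicate term or the threshold keep the fold change and could not reverse it. The 1149 include results that were not called and stayed so. These totals are thus not a measure of robustness. Counts below are of the 10 genes called, without the share of all genes in the same fit. The cause of each change was not tested. With a pseudocount of 5, 60% HFD against ND gave 1. Without a filter it gave 0, as did 60% against 40% HFD. With a mean of at least 5, and with edgeR, the genotype effect of 60% HFD minus ND gave 1. Quantile normalization gave 4 for 60% HFD against ND, 3 for genotype under 60% HFD without ligature and 1 for 60% HFD against ND in ligatured CCL19-KI mice. In the fits of 18 mice, 60% HFD against ND and 60% against 40% HFD gave 0, as did 60% HFD against ND in unligatured CCL19-KI mice.

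The hepatocyte score as covariate gave 1 for 60% HFD against ND and 0 for genotype under ND and 60% HFD without ligature, 60% HFD against ND in unligatured CCL19-KI mice and ligature in CCL19-KI mice on 60% HFD. With both the hepatocyte and the adipocyte score, a setting chosen after seeing the data, these were 1, 0, 0, 2 and 0, and 60% against 40% HFD gave 0. The adipocyte score alone gave 1 for 60% HFD against ND, 0 for genotype under ND without ligature and 1 for 60% HFD against ND in ligatured CCL19-KI mice. The epididymal score gave 0 for 60% HFD against ND, 3 for genotype under 60% HFD without ligature and 1 for ligature in CCL19-KI mice on 60% HFD. The skeletal muscle score gave 0 for 60% against 40% HFD and 1 for 60% HFD against ND in ligatured CCL19-KI mice. The smooth muscle score, also chosen after seeing the data, gave 0 for 60% HFD against ND, genotype under 60% HFD without ligature and ligature in CCL19-KI mice on 60% HFD, and 1 for 60% HFD against ND in unligatured CCL19-KI mice. Leaving out the 2 libraries against their labels, chosen likewise, gave 0 for 60% HFD against ND, 1 for genotype and 5 for ligature in CCL19-KI mice on 60% HFD.

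Sample quality weights, whose estimation stopped before convergence, gave 5 for genotype, 2 for ligature, 8 for genotype in ligatured mice on ND, 1 and 5 for 60% HFD against ND in unligatured and ligatured WT and 3 in ligatured CCL19-KI mice, 1 for 40% HFD against ND in ligatured WT and 3 and 6 in unligatured and ligatured CCL19-KI mice, 2 for ligature in WT on ND, 5 and 2 in CCL19-KI mice on ND and 40% HFD, and 5, 4 and 3 for the differences of the genotype effect. The criteria of the study, an unadjusted p up to 0.05 with a ratio from 1.5 upward or 0.67 downward, gave 1 for 60% HFD against ND, for genotype and for ligature, 6 for ligature in CCL19-KI mice on 60% HFD, and 1 to 4 in comparisons with 0 calls.

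Same-numbered libraries did not deviate together in the median (r = -0.02 over 198 pairs, from -0.66 to 0.71, 73 of them over 0.1). A median over all pairs cannot exclude a pairing or batch shared by some groups. With the replicate block, genotype gave 1 (*Akt2*, adjusted p = 0.0335), 60% HFD against ND in ligatured CCL19-KI mice gave 1 and ligature in CCL19-KI mice on 60% HFD gave 4, and no other count changed.

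Leaving out each mouse gave 0 to 3 for 60% HFD against ND, 0 to 1 for 60% against 40% HFD, 0 to 2 for genotype, 1 to 4 and 3 to 5 for genotype under ND and 60% HFD without ligature, 0 to 1 for genotype in ligatured mice on ND, 0 to 4 and 0 to 1 for 60% HFD against ND in unligatured and ligatured CCL19-KI mice, 0 to 1 for 40% HFD against ND in unligatured WT and in unligatured CCL19-KI mice, 0 to 2 and 0 to 4 for ligature in CCL19-KI mice on ND and 60% HFD, and 0 to 2 for the difference of the genotype effect between either HFD and ND. For 60% HFD against ND, 23 of 24 such fits changed the count by over 1.5 times. Each of the 10 genes had at least 68 reads in each library. Precision is limited by the 3 mice a group, and for *Slc2a1*, the gene with the lowest count, depth may add to this.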
